A study of Homo sapiens with 12 samples.

Results

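The 9 genes described here, HLA-B, HLA-C, HLA-E, B2M, TAP1, TAP2, TAPBP, PSMB9 and NLRC5, encode class I molecules of the major histocompatibility complex (MHC) and the machinery that supplies them with peptide. They were picked by symbol from the 56832 gene symbols of the count files. The rule names no measured value, but the genes were chosen with earlier results of these data known. Counts of calls among them are therefore descriptions. RNA sequencing covered 12 libraries of SW1736, a cell line established from anaplastic thyroid carcinoma, an undifferentiated tumour of the thyroid. The cells carried a pCDH vector, either with thyroid hormone receptor beta (TRB) or empty (EV). All cells were first starved of hormone for 24 h and then exposed for 24 h to triiodothyronine (T3, the active thyroid hormone) at 10 nM or to its sodium hydroxide vehicle. This gave 4 groups of 3 libraries: EV with vehicle, EV with T3, TRB with vehicle and TRB with T3. The labels name 1 cell line and do not say whether the libraries of a group came from separate cultures, so p-values measure the spread between these libraries, which may be technical. EV cells are not free of the receptor's transcript, as the values of THRB below show.

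A class I molecule is a polymorphic heavy chain, such as HLA-B or HLA-C, or a less variable one, such as HLA-E, bound to the light chain B2M. Proteasomes cut cytosolic proteins into peptides, and immunoproteasomes carry the exchanged catalytic subunits PSMB8, PSMB9 and PSMB10. TAP1 and TAP2 form the transporter that pumps peptides into the endoplasmic reticulum, where TAPBP (tapasin) bridges TAP and empty class I molecules and helps select tightly bound peptides. NLRC5 is a transactivator that works through a multiprotein complex with RFX5 on class I promoters, and interferons induce most of these genes through factors such as IRF1. Receptors for thyroid hormone bind DNA with and without their ligand and change transcription when T3 is bound.

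Counts within genes ran from 3819306 to 13086717 per library. THRB, the gene of the supplied receptor, stood at 14.6 ± 1.39 CPM (read counts scaled to library size; SD, n = 3) in vehicle-treated EV cells, 14.9 ± 3.04 in T3-treated EV cells, 80.1 ± 0.314 in vehicle-treated TRB cells and 269.6 ± 69.8 in T3-treated TRB cells, or 309.3 ± 17.8 (n = 2) without replicate 2. That replicate stood furthest from its own group: its counts differed from those of replicates 1 and 3 by a chi-square of 220.3 and 207.3 per gene, where replicates 1 and 3 differed by 3.58. Replicate 2 of EV with T3 came next, at 25.7 and 36.4 against 9.85 between its replicates 1 and 3. Against the mean of its replicates 1 and 3, the median log2 departure of TRB with T3 replicate 2 ran from 1.47 in genes whose longest transcript has at most 40% GC to -3.14 in genes above 60% GC. Calls on TRB with T3 are therefore given from all 12 libraries and from the 11 without it. Of the epithelial markers, the keratins KRT8, KRT18 and KRT19 were lower in that library than in any other (KRT8 386.0 CPM against 1263 to 2208), the adhesion molecule EPCAM was higher (1100 CPM against 317.1 to 576.1), and CDH1 lay within the range of the others. The thyroid follicular markers TSHR and FOXE1 had 0 counts in every library, and the summed level of 7 thyroid markers was at most 10.9 CPM, so the labelled thyroid origin rests on the label. The leukocyte markers were mixed: CD3E had 0 counts in every library, while LYZ stood at 778.2 to 1589 CPM. CD14 reached 9.74 CPM in TRB with T3.

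Of the 9 genes, 7 lie on chromosome 6 in GENCODE 29 (build GRCh38). These are HLA-E at chr6:30489467-30494205 (plus strand), HLA-C at chr6:31268749-31272130 and HLA-B at chr6:31269491-31357188 (both minus), TAP2 at chr6:32821833-32838780 and TAP1 at chr6:32845209-32853978 (both minus), PSMB9 at chr6:32844136-32859585 (plus), and TAPBP at chr6:33299694-33314387 (minus). B2M lies at chr15:44711487-44718877 (plus) and NLRC5 at chr16:56989485-57083531 (plus). All are annotated as protein coding, and counts were summed over a whole gene. The annotated exons of HLA-B and HLA-C share 35 bases, those of TAP2 share 2064 bases with AL669918.1 on the same strand, and those of TAP1 share 456 with the antisense transcript PSMB8-AS1. PSMB9 shares 139 exonic bases with the opposite-strand PSMB8 and 174 with PSMB8-AS1. Whether counting used strand is not given in the sources used here, so reads from these stretches, and reads common to the near-identical heavy chain genes, are of uncertain assignment.

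The upstream windows are shown because most of these genes moved in the same direction with T3 and because interferon-stimulated response elements (ISRE) are the textbook class I control sequence. RefSeq windows (build GRCh38.p14) reach from 250 bases before to 50 bases after a start. They matched 7 of the 9 genes through 8 windows, with none for HLA-E and NLRC5. An ISRE core, GAAANNGAA on either strand, was present in 4 of the 8 windows (TAP2, TAP1, TAPBP and B2M), against 8.11% of 35116 windows of all genes. The mirrored spacing GAANNGAAA, which was added after the windows had been read, was present in 3 (HLA-C, HLA-B and TAP2), against 7.66%. Either spacing was present in 6, against 14.5% of all windows, and the 2 spacings can overlap, as in TAP2. The following 30 bases hold the match of each gene, written 5′ to 3′ on the gene's strand with the ISRE letters in capitals.
HLA-C: actcccctgagTTTCACTTCtcccaacctg
HLA-B: actcccctgagTTTCACTTCttctcccaac
TAP2: tggctgggGAAGCGAAAGCGAAagctgccc
TAP1: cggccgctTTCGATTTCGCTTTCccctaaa
TAPBP: ctttggagGAAAGTGAAAGTGAAaggagga
B2M: gactctaaGAAAAGGAAACTGAAaacggga
They lie at chr6:31272225-31272254, chr6:31357316-31357345, chr6:32838781-32838810, chr6:32853816-32853845 and chr6:33314077-33314106, all on the minus strand, and at chr15:44711365-44711394 on the plus strand. The stretches of HLA-C and HLA-B hold the same ISRE letters and the same bases before them.

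A longer stretch of the HLA-C promoter, 212 bases from 250 to 39 bases before the start (chr6:31272131-31272342, minus strand), shows how the class I elements sit together. Capitals mark the mirrored ISRE and each inverted CCAAT box (ATTGG on either strand).
HLA-C: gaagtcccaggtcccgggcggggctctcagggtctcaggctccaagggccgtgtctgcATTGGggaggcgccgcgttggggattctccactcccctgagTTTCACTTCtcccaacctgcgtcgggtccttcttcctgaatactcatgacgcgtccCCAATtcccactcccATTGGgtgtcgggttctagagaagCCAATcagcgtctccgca
The inverted CCAAT box was present in 5 of the 8 windows (HLA-C, HLA-B, TAP1, PSMB9 and B2M), against 34.6% of all windows. TGACG, a core bound by CREB and ATF factors, was present in 5, against 24.6%. The interferon gamma element TTCNNNGAA was present in 1 (TAP1), against 7.66%, and GGGATTCCC, an enhancer A core for NF-kappa-B factors, in 1 (HLA-B), against 0.384%. AGGTCA, the hexamer of nuclear receptor elements, was in 0 of the 8, against 13.8%, which says only that these letters are not in these windows. All motifs were searched on both strands, and a match is a description of letters and not of binding.

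The first comparison asked how T3 changed these genes in cells supplied with the receptor. In these cells THRB itself went from 80.1 CPM with vehicle to 269.6 CPM with T3, and in EV cells from 14.6 to 14.9 CPM. T3 and this rise cannot be told apart, here or in the difference of the response below. In all 12 libraries edgeR's quasi-likelihood test with Benjamini-Hochberg adjustment over 14431 genes called 4 of the 7 members that passed the count filter higher with T3 (B2M, TAP1, TAP2 and TAPBP), against 8.54% of all tested genes higher and 6.20% lower. PSMB9 and NLRC5 did not pass the filter there. Without replicate 2, 14825 genes were tested and the same 7 were called higher, against 18.1% of all genes higher and 15.2% lower. PSMB9 and NLRC5 passed the filter there only through TRB with T3, so they had to differ and are left out of the counts. The median log2 fold change of the 7 was 1.41 in 12 libraries and 1.59 in 11, where the median of all tested genes was 0.01 and -0.01. In bulk RNA a change in the share of cells that express a gene and a change in RNA per cell cannot be told apart. The T3 libraries lay wholly above the vehicle libraries for 4 of 7 members in the 12 libraries, where 17.3% of tested genes did so, and for 7 of 7 in the 11 libraries, where 30.3% did.

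**Figure D1:**
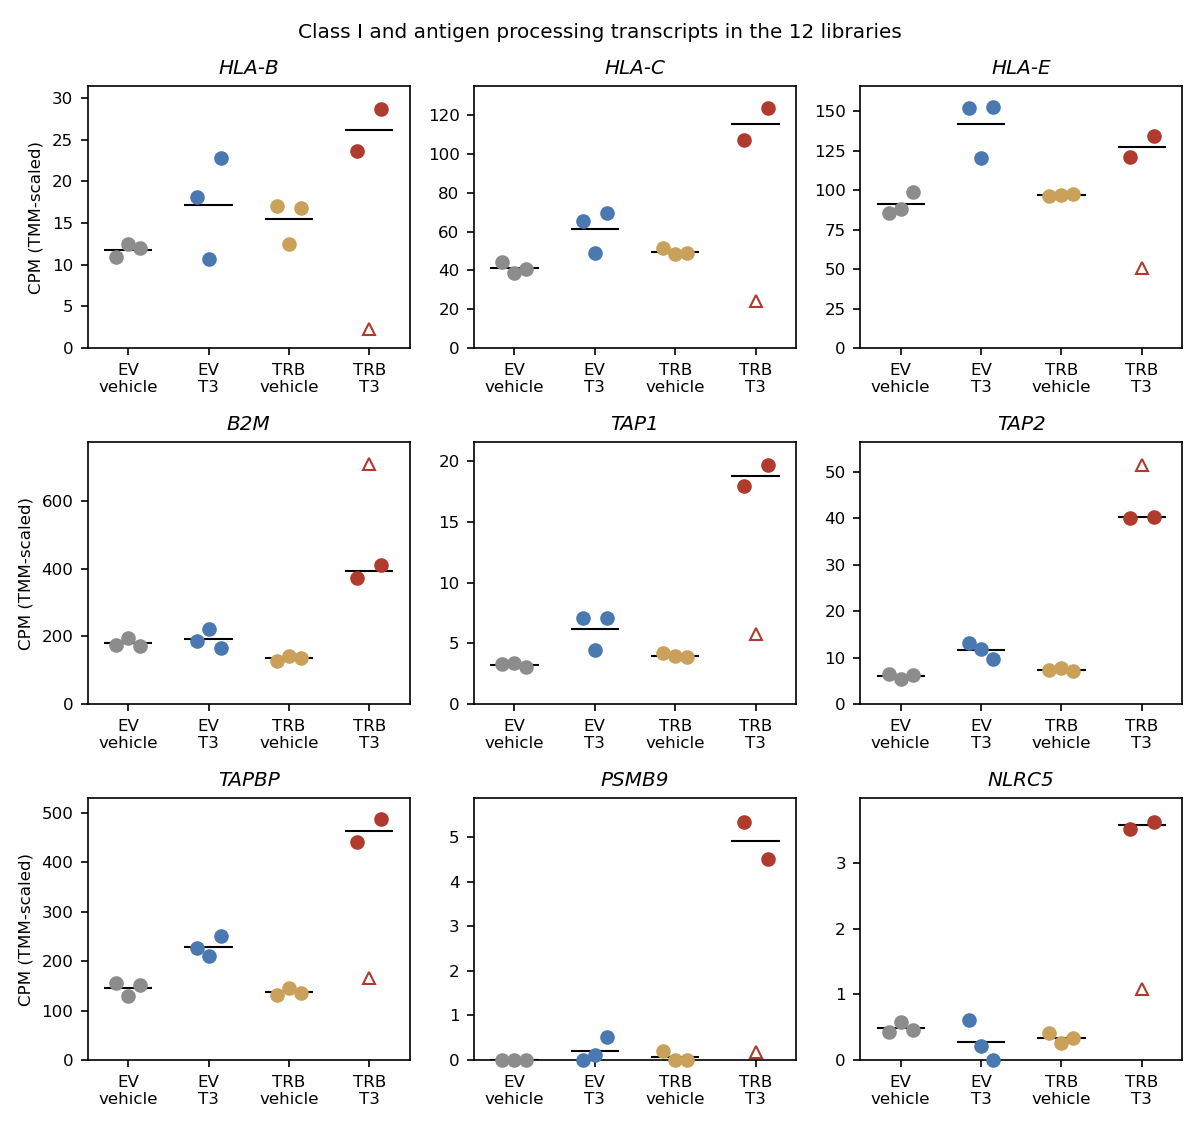
CPM of each gene (vertical axes, linear and starting at 0) in the 12 libraries by group; each point is 1 library, the open triangle is replicate 2 of TRB with T3, and the bar is the group mean without that library. In TRB with T3, the filled points lie above those of TRB with vehicle in all 9 panels, while the triangle lies above the filled T3 points for B2M and TAP2 and below the vehicle points for HLA-B, HLA-C and HLA-E.

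Among the heavy chains, HLA-C changed most in the 11 libraries. Its level was 51.8, 48.4 and 48.9 CPM in TRB with vehicle (replicates 1 to 3) and 107.5, 24.5 and 123.8 CPM with T3. Replicates 1 and 3 with T3 were above all vehicle libraries and replicate 2 was below them all. The log2 fold change was 0.78 ± 0.44 (SE, n = 3 and 3; edgeR adjusted p = 0.251) with all libraries and 1.26 ± 0.14 (adjusted p = 1.46e-05) without replicate 2.

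HLA-B, the other polymorphic heavy chain measured here, read 17.1, 12.5 and 16.8 CPM with vehicle and 23.6, 2.34 and 28.6 CPM with T3. The 13 counts of replicate 2 were the fewest of any library. The log2 fold change was 0.25 ± 0.61 (edgeR adjusted p = 0.801) in 12 libraries and 0.80 ± 0.23 (adjusted p = 0.0168) in 11. The latter call was lost without TRB with vehicle replicate 2 (log2 fold change 0.67) and without TRB with T3 replicate 3 (0.65).

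HLA-E, which presents leader peptides of other class I chains to receptors of natural killer cells, had the smallest change of the 9 in the 11 libraries. It stood at 95.9, 97.1 and 97.4 CPM with vehicle and at 120.9, 50.4 and 134.0 CPM with T3. The log2 fold change was 0.07 ± 0.29 (edgeR adjusted p = 0.880) in 12 libraries and 0.44 ± 0.12 (adjusted p = 0.0103) in 11, and leaving out TRB with T3 replicate 3 as well ended the latter call (log2 fold change 0.36).

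B2M, the light chain shared by all class I molecules, rose in both fits. Its level was 127.5, 141.6 and 135.6 CPM with vehicle and 373.6, 709.7 and 412.5 CPM with T3. All T3 libraries were above all vehicle libraries, and replicate 2 was the highest. The log2 fold change was 1.89 ± 0.24 (edgeR adjusted p = 0.000438) with 12 libraries and 1.59 ± 0.13 (adjusted p = 1.28e-06) with 11, a 3.01-fold difference.

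Both chains of the peptide transporter rose. TAP1 read 4.17, 3.96 and 3.86 CPM with vehicle and 17.9, 5.76 and 19.7 CPM with T3, so that replicate 2 lay just above the vehicle libraries. Its log2 fold change was 1.87 ± 0.39 (edgeR adjusted p = 0.00828) in 12 libraries and 2.28 ± 0.17 (adjusted p = 7.08e-07) in 11. TAP2 read 7.42, 7.67 and 7.05 CPM with vehicle and 40.2, 51.4 and 40.2 CPM with T3. TAP2 was the member whose T3 libraries, replicate 2 included, lay closest together by ratio. Its log2 fold change was 2.57 ± 0.20 (edgeR adjusted p = 1.81e-05) and 2.49 ± 0.14 (adjusted p = 5.74e-08), or 5.62-fold without replicate 2.

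TAPBP, the tapasin of the loading complex, stood at 131.7, 145.5 and 135.0 CPM with vehicle and 439.9, 166.2 and 486.4 CPM with T3. The groups did not overlap, although replicate 2 was near the vehicle libraries. The log2 fold change was 1.41 ± 0.32 (edgeR adjusted p = 0.0135) in 12 libraries and 1.80 ± 0.11 (adjusted p = 1.43e-07) in 11. In the 12 libraries the call was lost when any 1 TRB library with vehicle was left out (adjusted p from 0.0537 to 0.0635), and when the TRB groups were fitted alone the calls of both TAPBP (adjusted p = 0.154) and TAP1 (adjusted p = 0.113) were lost.

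PSMB9, a catalytic subunit of the immunoproteasome, and NLRC5 were close to the detection limit outside TRB with T3. PSMB9 had 0, 0 and 0 counts in the EV vehicle libraries, 0, 1 and 2 in the EV T3 libraries, 2, 0 and 0 in the TRB vehicle libraries and 71, 1 and 36 in the TRB T3 libraries. Replicates 1 and 3 of TRB with T3 thus held nearly all of its reads. From the summed counts without replicate 2, its rate was 83.7 times that of TRB with vehicle (95% exact binomial interval from 22.6 to 699.8) and 33.3 times that of EV with T3 (11.1 to 163.9), and at least 46.4-fold higher than in EV with vehicle when that group is set at a floor of 3 counts. Intervals and floors cover counting error only. PSMB9 passed the filter of the 11-library edgeR fit only through TRB with T3, so its call there was set by the filter and adds no support. With replicate 2 included the rate was 67.0 times that of TRB with vehicle (18.1 to 560.2).

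NLRC5 had 2, 7 and 5 counts in the EV vehicle libraries, 4, 2 and 0 in the EV T3 libraries, 4, 3 and 4 in the TRB vehicle libraries and 47, 6 and 29 in the TRB T3 libraries. For TRB cells this is 0.407, 0.258 and 0.336 CPM with vehicle and 3.53, 1.08 and 3.62 CPM with T3, with no overlap. The log2 fold change was 3.43 ± 0.38 in 11 libraries, where NLRC5 passed the filter only through TRB with T3. In 12 libraries without a count filter it was 3.04 ± 0.55 (edgeR adjusted p = 0.00135).

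**Figure D2:**
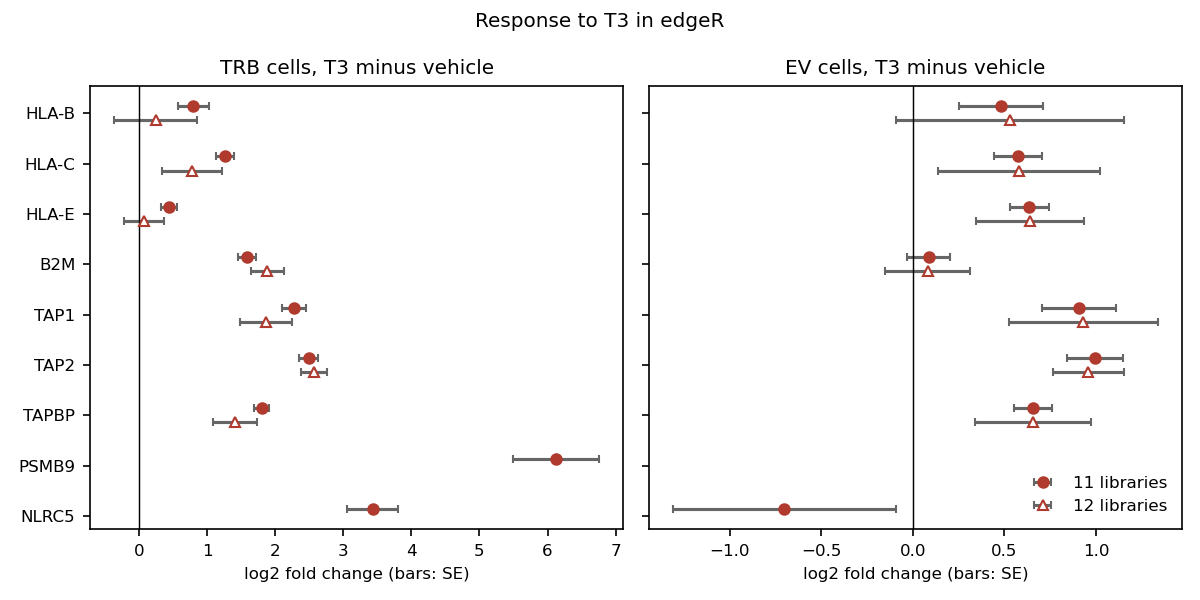
Log2 fold change of T3 over vehicle (horizontal axes, which differ in range) for each gene in TRB cells (left) and EV cells (right); filled circles are fits of 11 libraries, open triangles fits of 12, and bars are SE. In TRB cells the circles run from 0.44 (HLA-E) to 6.13 (PSMB9), and PSMB9 is not drawn for EV cells because its counts there are at the floor.

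The members differed in how far replicate 2 of TRB with T3 departed from replicates 1 and 3. The log2 departure was -3.35 for HLA-B (59.0% GC), -2.23 for HLA-C (62.7%), -1.33 for HLA-E (54.8%), -1.67 for TAP1 (57.5%), -1.48 for TAPBP (57.6%) and -1.54 for NLRC5 (58.0%). It was 0.35 for TAP2 (49.1%) and 0.85 for B2M (40.6%). PSMB9 departed by -3.67 at 46.9% GC, where the median of 2095 genes between 45% and 50% GC was 0.15. GC content and the departure moved together across genes, and the part of GC content in these values was not tested beyond the fits with GC offsets given in the closing section.

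**Figure D3:**
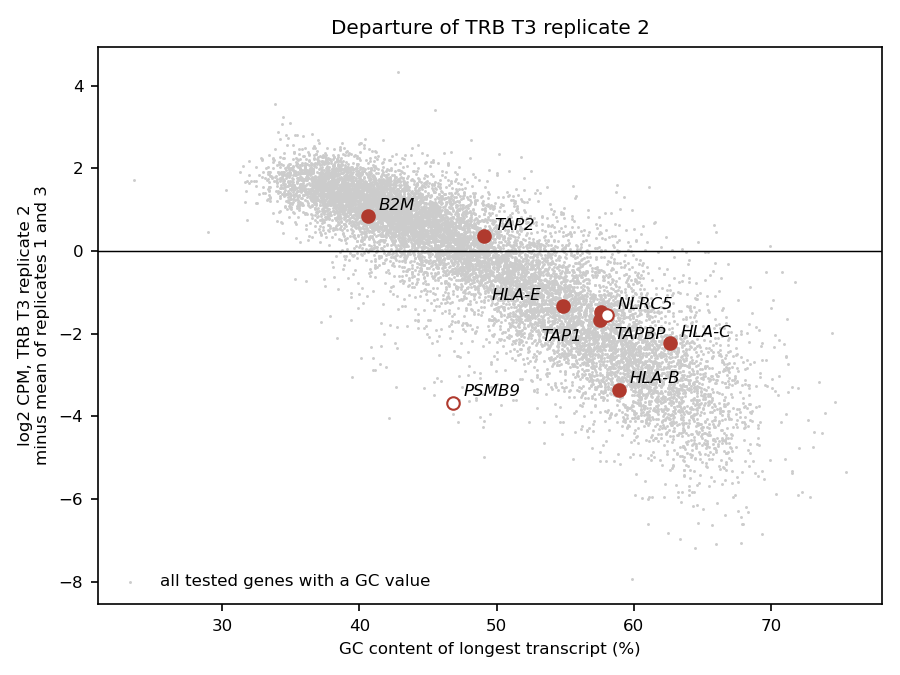
Log2 CPM of TRB with T3 replicate 2 minus the mean of replicates 1 and 3 (vertical axis) against GC content of the longest annotated transcript (horizontal axis, %); grey points are 12157 tested genes, red circles the members, and open circles the members that did not pass the filter in 12 libraries. B2M and TAP2 lie above 0, and the other 7 members lie below, from -1.33 (HLA-E) to -3.67 (PSMB9).

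The second comparison asked whether T3 changed the same genes in cells with the empty vector. No member was called in the 12 libraries (0 of 7, against 0.208% of all genes called higher), where 2 of the 7 had an unadjusted edgeR p under 0.05 and DESeq2 called 1 (TAP2). The groups compared do not contain replicate 2 of TRB with T3, but the 12-library fit takes its spread from all groups. Without that library, 5 of the 7 were called higher (HLA-C, HLA-E, TAP1, TAP2 and TAPBP), against 3.76% of all genes. For each of these 5 the lowest T3 library lay above the highest vehicle library, as it did for 10.9% of all tested genes. Non-unique alignments were 33.1% to 66.3% of everything counted in EV with vehicle and 69.6% to 92.0% in EV with T3. In TRB with T3 they were 19.0% to 66.6%. This library property cannot be told apart from T3 in EV cells. The same holds for the comparisons below that use EV with T3, which are the difference of the response and TRB against EV with T3. With replicate 2 of EV with T3 also left out, HLA-B was called besides these 5, with log2 fold changes from 0.76 (TAPBP) to 1.18 (TAP1), but so were 40.3% of all genes in either direction.

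TAP2 read 6.52, 5.31 and 6.16 CPM in EV with vehicle and 13.1, 11.9 and 9.62 CPM in EV with T3. For TAP2 the log2 fold change was 0.96 ± 0.19 (edgeR adjusted p = 0.105) in 12 libraries and 0.99 ± 0.15 (adjusted p = 0.00285) in 11. TAP1 read 3.26, 3.35 and 3.03 CPM and then 7.10, 4.44 and 7.09 CPM, with a log2 fold change of 0.93 ± 0.41 (edgeR adjusted p = 0.804) and 0.91 ± 0.20 (adjusted p = 0.0221). Replicate 2 of EV with T3 was the lowest of its group for TAP1, and also for HLA-B, HLA-C, HLA-E and TAPBP.

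TAPBP read 156.2, 128.6 and 151.2 CPM with vehicle and 227.2, 209.8 and 250.3 CPM with T3, with a log2 fold change of 0.66 ± 0.11 (edgeR adjusted p = 0.00359) in 11 libraries and 0.66 ± 0.32 (adjusted p = 0.858) in 12. HLA-E read 85.6, 88.1 and 99.0 CPM and then 151.9, 120.1 and 152.9 CPM, a log2 fold change of 0.63 ± 0.11 (edgeR adjusted p = 0.00462) in 11 libraries and 0.64 ± 0.30 (adjusted p = 0.836) in 12. HLA-C read 44.3, 38.5 and 40.8 CPM and then 65.4, 49.2 and 69.9 CPM, a log2 fold change of 0.57 ± 0.13 (edgeR adjusted p = 0.0232) in 11 libraries and 0.58 ± 0.44 (adjusted p = 0.935) in 12. These changes were all upward and each was under 1 on the log2 scale. From the 11 libraries, the calls of HLA-C and TAP1 were lost when replicate 2 or 3 of the EV vehicle libraries or replicate 1 of the EV T3 libraries was also left out, and when the EV groups were fitted alone TAP2 and TAPBP were the members called, against 1.49% of all genes in either direction.

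B2M did not pass the test in EV cells in the fits of 12 and 11 libraries. Of 23 alternatives to the 12-library fit, 1 called it higher there, that with GC offsets on 11 libraries. That setting called 2183 of 12334 genes in either direction. B2M stood at 174.4, 195.3 and 173.2 CPM with vehicle and 186.4, 222.3 and 165.0 CPM with T3, which overlap. Its log2 fold change was 0.09 ± 0.12 (edgeR adjusted p = 0.656) in 11 libraries. HLA-B overlapped as well, at 10.9, 12.5 and 11.9 CPM and then 18.1, 10.7 and 22.8 CPM, with a log2 fold change of 0.48 ± 0.23 (edgeR adjusted p = 0.191); it was 0.80 in the fit also without EV with T3 replicate 2. NLRC5 had a log2 fold change of -0.70 ± 0.61 (edgeR adjusted p = 0.478), and PSMB9 was at or below 3 summed counts in both EV groups, for which no fold is given.

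The next question was whether the T3 response itself differed between the vectors, tested as the difference of the 2 log2 fold changes in 1 model. With 12 libraries it was called larger in TRB cells for 2 of 7 members, B2M and TAP2, against 1.77% of all genes. With 11 libraries it was called for 5 of these 7 (HLA-C, B2M, TAP1, TAP2 and TAPBP), against 8.55%. For B2M the difference was 1.81 ± 0.33 on the log2 scale (edgeR adjusted p = 0.0191) in 12 libraries and 1.504 ± 0.18 (adjusted p = 0.000148) in 11. For TAP2 it was 1.61 ± 0.27 (adjusted p = 0.0121) and 1.497 ± 0.21 (adjusted p = 0.000605).

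From the 11 libraries, the edgeR difference was 1.37 ± 0.27 for TAP1 (adjusted p = 0.00516), 1.14 ± 0.16 for TAPBP (adjusted p = 0.000449) and 0.69 ± 0.19 for HLA-C (adjusted p = 0.0275). In 12 libraries these differences were 0.94 ± 0.56 for TAP1 (edgeR adjusted p = 0.331), 0.75 ± 0.44 for TAPBP (adjusted p = 0.331) and 0.20 ± 0.62 for HLA-C (adjusted p = 0.837). The call of HLA-C was the least firm, since it was made in 8 of 17 alternatives to the 11-library fit; the calls of B2M, TAP1, TAP2 and TAPBP were made in all 17. NLRC5 differed by 4.13 ± 0.73, a value that rests on the few counts of its other groups. The difference was not called for HLA-E (-0.19 ± 0.16, adjusted p = 0.446), whose fitted response was 0.63 in EV cells and 0.44 in TRB cells, nor for HLA-B (0.32 ± 0.33, adjusted p = 0.545), and in 12 libraries these differences were -0.57 and -0.28. In 12 libraries the call of B2M was lost without any 1 of replicate 2 of EV vehicle, replicates 1 or 3 of EV T3, or a TRB vehicle library (adjusted p from 0.0507 to 0.0596), and that of TAP2 without TRB with vehicle replicate 3 (adjusted p = 0.0502).

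**Figure D4:**
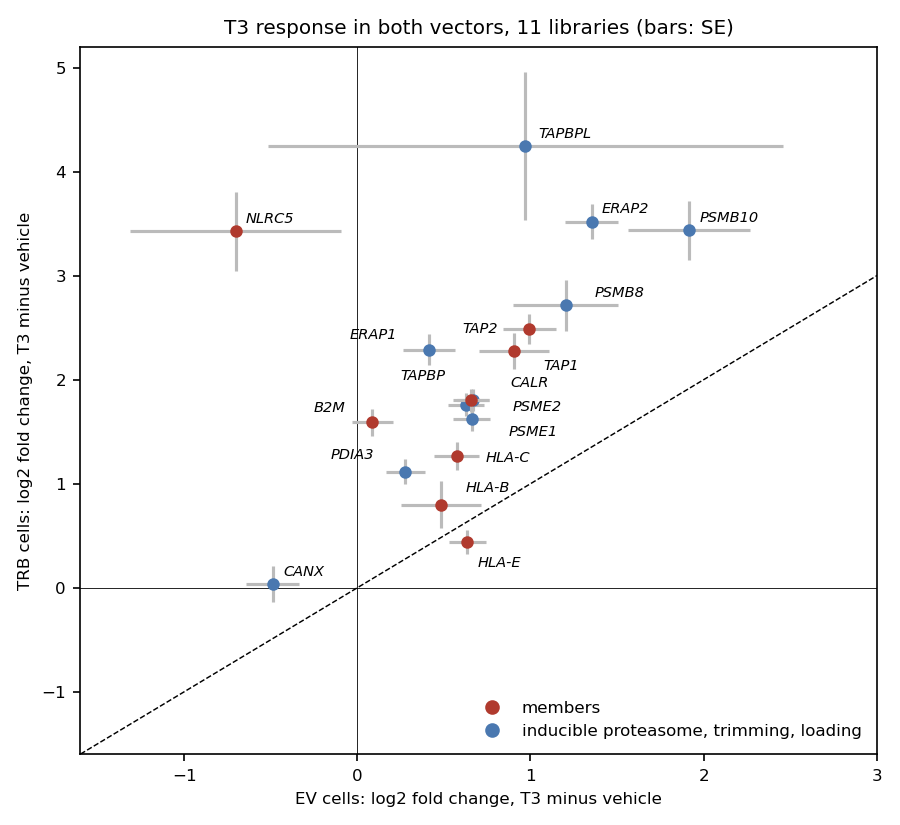
Log2 fold change of T3 over vehicle in TRB cells (vertical axis) against EV cells (horizontal axis) from 11 libraries, with SE bars; red circles are the members except PSMB9, blue circles the list of 10 processing and loading genes, and the dashed line marks equal responses. Of the members drawn, HLA-E is the one below the line, and B2M lies at 0.09 in EV cells and 1.59 in TRB cells.

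Without hormone, TRB and EV cells were compared to see whether the receptor alone went with a change. In both fits edgeR called 0 members (0 of 7, against 0.0208% of all genes in either direction with 12 libraries, and 0 of 9, against 0.0742%, with 11). An unadjusted p under 0.05 was found for 0 members with 12 libraries and 3 with 11: B2M with a log2 fold change of -0.41 ± 0.12 (edgeR adjusted p = 0.314), HLA-C with 0.29 ± 0.13 (adjusted p = 0.395) and TAP2 with 0.34 ± 0.15 (adjusted p = 0.399). For B2M every TRB library with vehicle lay below every EV library with vehicle. The other values in 11 libraries were 0.39 ± 0.22 for HLA-B, 0.10 ± 0.11 for HLA-E, 0.33 ± 0.20 for TAP1, -0.07 ± 0.11 for TAPBP and -0.57 ± 0.52 for NLRC5, and PSMB9 was at the floor in both groups. When the vehicle groups were fitted alone, B2M (log2 fold change -0.40, edgeR adjusted p = 0.0183) and HLA-C (0.31, adjusted p = 0.0449) were called, against 11.2% of all genes. B2M was also called in the 11-library fit without EV with T3 replicate 2 (adjusted p = 0.0207), where 4.86% of all genes were.

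With T3 in both, TRB cells were higher than EV cells for B2M and TAP2 in the 12 libraries (2 of 7, against 4.13% of all genes called higher). With 11 libraries 5 of these 7 were higher, against 11.8%. The edgeR log2 fold changes in the 11 libraries were 0.98 ± 0.14 for HLA-C, 1.09 ± 0.13 for B2M, 1.71 ± 0.18 for TAP1, 1.83 ± 0.14 for TAP2, 1.08 ± 0.11 for TAPBP and 3.56 ± 0.44 for NLRC5. NLRC5 and PSMB9 passed the filter there only through TRB with T3, so their calls in this comparison add no support. HLA-B did not pass (0.71 ± 0.24, adjusted p = 0.0541) and HLA-E did not (-0.09 ± 0.12, adjusted p = 0.673). In 12 libraries the values that did not pass were 0.47 ± 0.44 for HLA-C (edgeR adjusted p = 0.479), 1.25 ± 0.39 for TAP1 (adjusted p = 0.0829), 0.67 ± 0.32 for TAPBP (adjusted p = 0.208), 0.11 ± 0.62 for HLA-B and -0.47 ± 0.30 for HLA-E. HLA-E in TRB cells with T3 lay within the range of EV cells with T3 when replicate 2 was left out. In 12 libraries B2M had a log2 fold change of 1.38 ± 0.24 (adjusted p = 0.00613) and TAP2 1.92 ± 0.19 (adjusted p = 0.000300); when the T3 groups were fitted alone neither was called (adjusted p = 0.173 and 0.0587). These values share libraries with both T3 comparisons and are no independent support of them.

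The other genes of the pathway were read from lists chosen with earlier results of these data known. Of 10 genes for the inducible proteasome, peptide trimming and loading, 9 passed the filter in both fits, and 8 of these 9 were called higher with T3 in TRB cells in each, against 8.54% of all genes in 12 libraries and 18.1% in 11. Their median log2 fold change was 1.54 and 1.81. The tenth, TAPBPL, passed the filter in 11 libraries only through TRB with T3. PSMB8, an immunoproteasome subunit, went from 3.76, 2.58 and 2.27 CPM to 17.5, 6.84 and 18.7 CPM. The edgeR log2 fold change of PSMB8 was 2.34 ± 0.41 (edgeR adjusted p = 0.00339) in 12 libraries and 2.71 ± 0.24 (adjusted p = 2.94e-06) in 11.

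PSMB10, the remaining immunoproteasome subunit, read 2.03, 2.41 and 1.93 CPM with vehicle and 22.2, 0.899 and 22.6 CPM with T3, so that replicate 2 lay below the vehicle libraries. PSMB10 had a log2 fold change of 2.85 ± 0.82 (edgeR adjusted p = 0.0397) and 3.44 ± 0.29 (adjusted p = 1.61e-06). PSME1 and PSME2, subunits of a proteasome activator, rose by 1.62 ± 0.11 and 1.76 ± 0.11 on the log2 scale in the 11 libraries and also passed with 12.

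The peptide trimming enzymes of the endoplasmic reticulum both rose. ERAP2 read 17.3, 16.6 and 16.8 CPM with vehicle and 197.7, 421.7 and 177.6 CPM with T3, and its log2 fold change was 3.97 ± 0.34 (edgeR adjusted p = 3.53e-05) in 12 libraries and 3.52 ± 0.17 (adjusted p = 9.51e-09) in 11. ERAP1 read 10.3, 11.3 and 8.81 CPM and then 47.0, 92.5 and 48.8 CPM, with 2.63 ± 0.28 and 2.29 ± 0.15. The chaperones CALR (1.81 ± 0.10 in 11 libraries) and PDIA3 (1.12 ± 0.12) of the loading complex rose in both fits. CANX, the membrane-bound chaperone of early heavy chain folding, did not pass in either (0.68 ± 0.37 in 12 libraries and 0.03 ± 0.17 in 11).

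In EV cells 0 of these 9 were called higher with T3 in 12 libraries, against 0.208% of all genes, and 6 of 9 in 11 (PSMB8, PSMB10, PSME1, PSME2, ERAP2 and CALR), against 3.76%. PSMB10 had a log2 fold change of 1.92 ± 0.35, ERAP2 of 1.35 ± 0.15 and PSMB8 of 1.20 ± 0.30 in the 11 libraries. The difference of the response between vectors was called for ERAP1 and ERAP2 in 12 libraries and for 7 of the 9 in 11, all larger in TRB cells, against 1.77% and 8.55% of all genes.

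A list of 15 further proteasome genes held alpha and beta subunits, most of them common to both forms of the particle, and the activator PSME3. Of these, 1 was called higher with T3 in TRB cells in 12 libraries (PSMA3) and 6 in 11, against 8.54% and 18.1% of all genes, and 0 were called lower, with a median log2 fold change of 0.30 and 0.31. The catalytic subunits of the constitutive form, which the inducible ones replace, did not pass in either fit. In the 11 libraries the log2 fold change was -0.09 ± 0.18 for PSMB5 (the counterpart of PSMB8), 0.43 ± 0.18 for PSMB6 (of PSMB9) and 0.04 ± 0.10 for PSMB7 (of PSMB10). In the 12 libraries these values were -0.58, -0.04 and -0.30.

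Of 12 transcription factors with a known part in class I expression, 11 were tested and 4 were called higher with T3 in TRB cells in both fits, against 8.54% of all genes in 12 libraries and 18.1% in 11. IRF1, an interferon regulatory factor that binds ISRE sequences, read 11.5, 10.3 and 11.2 CPM with vehicle and 152.6, 57.6 and 157.1 CPM with T3. Its log2 fold change was 3.47 ± 0.35 (edgeR adjusted p = 0.000104) in 12 libraries and 3.86 ± 0.14 (adjusted p = 1.03e-09) in 11, and in EV cells 1.58 ± 0.13 (adjusted p = 2.82e-05) in 11 libraries. RFX5, a subunit of the complex on class I promoters, rose by 0.59 ± 0.10 in 11 libraries, and IRF2, a further interferon regulatory factor, by 0.87 ± 0.15. NFYA, a subunit of the factor that binds CCAAT boxes, was called lower in 11 libraries (-0.39 ± 0.11) and not in 12 (-0.16 ± 0.20, edgeR adjusted p = 0.599). CIITA, the class II counterpart of NLRC5, did not pass the count filter and was at most 0.253 CPM in any library.

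The list of 15 class I-like molecules did not move in 1 direction with T3 in TRB cells. Of 11 that passed the filter in both fits, 1 was called higher and 3 lower in 12 libraries, against 8.54% and 6.20% of all genes, and 3 higher and 3 lower in 11, against 18.1% and 15.2%. ULBP1, a ligand of the activating receptor NKG2D of natural killer cells, read 12.3, 11.3 and 10.2 CPM with vehicle and 2.702, 4.14 and 1.499 CPM with T3. Its log2 fold change was -2.04 ± 0.33 (edgeR adjusted p = 0.00195) in 12 libraries and -2.30 ± 0.26 (adjusted p = 2.04e-05) in 11. ULBP3 and RAET1L, of the same ligand family, were also lower in both fits, at -0.73 ± 0.18 and -1.05 ± 0.31 in the 11 libraries. HFE, a class I-like regulator of iron uptake, was higher in both fits (0.61 and 0.67). HLA-G (1.99 ± 0.44) and ULBP2 (0.88 ± 0.21) passed in 11 libraries, HLA-G from levels under 1 CPM in TRB with vehicle. Outside TRB with T3, HLA-G had at most 9 counts in a library, except 11 in replicate 2 of EV with T3. It therefore passed the count filter only with the help of TRB with T3. Its call, among the 3 higher in 11 libraries, adds no support. MICB (2.76 ± 0.54) passed the count filter in 11 libraries only through TRB with T3, so it had to differ. It did not pass that filter in 12 libraries. In 12 libraries HLA-G (1.60 ± 0.57, edgeR adjusted p = 0.0881) and ULBP2 (0.51 ± 0.35, adjusted p = 0.344) did not pass.

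Of 11 class II genes, 2 passed the count filter in 12 libraries and 3 in 11. HLA-DMB, which helps load class II molecules, rose by 1.74 ± 0.23 and 1.93 ± 0.18 on the log2 scale, and HLA-DMA, its partner chain, by 0.72 ± 0.15 in 11 libraries but not in 12 (0.23 ± 0.45, edgeR adjusted p = 0.745). Among the 7 leukocyte markers, CD14 read 0.407, 0.345 and 0.420 CPM in TRB cells given vehicle and 9.23, 0.180 and 9.74 CPM with T3, and it moved with the members in the 11 libraries. The summed leukocyte level, nearly all of it LYZ, ran from 1268 to 1465 CPM in EV vehicle libraries, from 1131 to 1406 in EV T3 libraries, from 804.1 to 982.8 in TRB vehicle libraries and from 787.7 to 1589 in TRB T3 libraries. The T cell marker CD3E was at 0 in all libraries and PTPRC, carried by nearly all leukocytes, was at most 0.217 CPM.

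The members were compared with each other and with all genes across the 11 libraries, which share 4 groups and their T3 and vector differences. Pearson correlations of log2 CPM were 0.99 between TAP1 and HLA-C, 0.97 between TAP1 and TAP2 and 0.96 between TAP2 and TAPBP. They were lower for HLA-E, from 0.11 with NLRC5 to 0.71 with TAPBP, and HLA-B and B2M correlated at 0.52. Of 10152 genes whose mean log2 CPM reached 3, 544 correlated above 0.9 with the mean profile of the members. The 5 closest were PRSS22 (a secreted serine protease, r = 0.995), CABLES1 (0.994), PLEKHM1 (an adaptor of late endosomes and lysosomes, 0.993), SLC16A3 (a lactate exporter, 0.992) and SLC39A7 (a zinc transporter of the endoplasmic reticulum, 0.991). PRSS22 read 107.8 and 131.2 CPM in replicates 1 and 3 of TRB with T3, 18.9 to 37.5 CPM in EV with T3 and 8.83 to 11.6 CPM in the vehicle libraries.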

How the data were processed

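RNA of 12 SW1736 libraries was extracted with Trizol and made into libraries with a Kapa Hyperprep kit, per the labels' protocols. The values the authors deposited are raw read counts for each gene symbol. The submitters' processing notes name hg38, CASAVA 1.7, STAR 2.7, HTSeq 0.10 and DESeq2, without roles; strand setting and annotation are not given in the sources used here. The 5 closing lines for reads of no gene were left out of library sizes. Non-unique alignments were 19.0% (TRB with T3 replicate 2) to 92.0% (EV with T3 replicate 3) of everything counted. A deposited table of normalized values was not used.

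Counts were tested in R 4.3.3 with edgeR 4.0.16: filterByExpr (minimum count 10, total 15), TMM scaling, a quasi-likelihood fit with 1 coefficient per group on all 12 libraries, 2-sided contrasts and Benjamini-Hochberg adjustment over all tested genes at 0.05. SE is the fold change divided by the root of F. The same fit was made on 11 libraries. The procedure was tested on simulated counts of the 11 libraries, with 1 fixed dispersion and neither a GC trend nor a deviant library. That test does not cover the fit of all 12 libraries. GC content is that of the longest GENCODE 29 transcript of each symbol. CPM is a count divided by the TMM-scaled library size in units of 1000000 counts, and its precision is limited by depth; 1 count is 0.0750 to 0.253 CPM. Correlations used a prior count of 2.

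The members and lists were chosen with earlier results of these data known. All 9 members are named, with values where one can be read; of the lists, a fixed set of genes and up to 4 more per list with the smallest p for T3 in TRB cells, with a few others named after their values were seen; some genes counted in the lists are not reported here by name. Group labels come from the sample labels. Alternatives were DESeq2 1.42.0, limma-voom (limma 3.58.1), other scalings and filters, compared groups alone, a replicate block, GC offsets and each library left out. The alternatives to the 11-library fit were chosen after seeing the data.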

Additional observations from a re-analysis of the deposited data

Results flagged for a closer look

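The T3 response was called different between TRB and EV cells by a test of the difference itself. The high share of non-unique alignments in EV with T3 cannot be told apart from this difference. In 12 libraries the calls of B2M and TAP2 were lost when certain single libraries were left out. With 12 libraries the log2 difference (TRB minus EV) was 1.81 for B2M and 1.61 for TAP2. With 11 libraries it was 0.69 for HLA-C, 1.504 for B2M, 1.37 for TAP1, 1.497 for TAP2, 1.14 for TAPBP and 4.13 for NLRC5. B2M is set apart by a response of 0.09 in EV cells, which did not pass the test in 12 or 11 libraries. With GC offsets on 11 libraries, however, B2M was called higher with T3 in EV cells. NLRC5 passed the filter only through TRB with T3. Its EV response of -0.70 rests on 14 summed counts with vehicle and 6 with T3, so its difference is not read as a finding. The calls of HLA-C, TAP1, TAPBP and NLRC5 are from the fit without TRB with T3 replicate 2. No group has more than 3 libraries, so single libraries were not tested as outliers.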

How the results depend on the processing

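Replicate 2 of TRB with T3 sets which members pass, and sparse counts limit PSMB9 and NLRC5, which are in the counts below wherever they passed the filter, as they did in 11 libraries only through TRB with T3. For T3 in TRB cells, 4 members were called with 12 libraries, 2 with the compared groups alone, 9 with GC offsets on 11 libraries and 4 to 9 with 1 library left out. For T3 in EV cells the count was 0, and 1 with at least 10 counts in every library, 1 with DESeq2, 2 with the compared groups alone, 3 with GC offsets, 6 with GC offsets on 11 libraries and 0 to 5 with 1 library left out. Without hormone it was 0, 2 with the compared groups alone and 0 with any library left out. For TRB against EV with T3 it was 2, and 4 with no count filter, 0 with the compared groups alone, 5 with GC offsets, 8 with GC offsets on 11 libraries and 2 to 7 with 1 library left out. For the difference of the response it was 2, and 1 with no count filter, 5 with GC offsets, 6 with GC offsets on 11 libraries and 0 to 6 with 1 library left out. Over all genes, GC offsets on 11 libraries gave 6907 calls among 12334 genes for T3 in TRB cells, in either direction. The same setting gave 2183 for T3 in EV cells, 5130 for TRB against EV with T3 and 4234 for the difference. From the 11-library fit, leaving out 1 more library gave 7 to 9 for T3 in TRB cells, 3 to 6 for T3 in EV cells, 0 to 1 without hormone, 7 to 8 with T3 and 5 to 6 for the difference; the compared groups alone gave 2 for T3 in EV cells and 2 without hormone.

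Fitted directions turned for values that did not pass the test in the fit they are set against. HLA-B turned for T3 in TRB cells with limma-voom (-0.29) and with 1 library left out (-0.18 to 0.80), and for TRB against EV with T3 with limma-voom (-0.37), the replicate block (-0.0608) and 1 library left out (-0.34 to 0.71). HLA-E turned for T3 in TRB cells with total library size (-0.0155), limma-voom (-0.0160) and 1 library left out (-0.15 to 0.44), and without hormone with GC offsets (-0.0237) and GC offsets on 11 libraries (-0.0292). TAPBP without hormone ranged from -0.14 to 0.00643 with 1 library left out. The difference turned for HLA-B with GC offsets (0.31), GC offsets on 11 libraries (0.45) and 1 library left out (-0.76 to 0.32), and for HLA-C with limma-voom (-0.0314) and 1 library left out (-0.18 to 0.69); from the 11 libraries it ranged from -0.00665 to 0.54 for HLA-B. The cause of these turns was not tested. Total library size moved the median log2 fold change of all genes to -0.139 for T3 in TRB cells and -0.167 for the difference, and limma-voom to -0.105 for the former.

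Same-numbered libraries correlated from -0.19 to 0.73 over 18 pairs and others from -0.72 to 0.63 over 36. Of the 12 libraries, 7 correlated best with their own number. Whether libraries of the same number share a source was not tested. The highest value, 0.73, was between the T3-treated EV and TRB libraries numbered 2, and all 6 pairs with this number were over 0.1. With the replicate block the members called stayed at 4, 0, 0, 2 and 2 for T3 in TRB cells, T3 in EV cells, no hormone, both with T3 and the difference. Of the single fold changes under all alternatives, 716 kept direction and side of the threshold from 12 libraries and 715 from 11, while 15 and 21 lost their call, 48 and 7 gained one, and 19 and 1 turned. Over all genes, calls for T3 in TRB cells numbered 2128 with 12 libraries (57.9% of them higher), 634 with the compared groups alone, 4938 with 11 libraries and 5181 with GC offsets (47.7% higher). For T3 in EV cells these counts were 33, 200, 1087 and 542, and from the 11 libraries 1965 with the replicate block and 6006 without EV with T3 replicate 2. Of the calls for the difference, 68.2% were higher with 12 libraries and 51.3% with GC offsets, and 56.1% with 11 libraries and 45.5% with total library size on these. For TRB against EV with T3 the share was 61.8% with 12 libraries and 50.2% with GC offsets.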
